A study of Mus musculus with 28 samples.

Results

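Prdm9, Spo11, Dmc1, Msh4, Msh5, Hfm1, Rnf212 and Mlh3, 8 genes that make and repair the programmed DNA breaks of meiosis, were followed through mouse spermatogenesis in Csmd1 wildtype and knockout animals. They were chosen by name, and the 34 transcripts listed for them, of 94480 transcripts and 37122 genes in all, were summed per gene. The series measured polyadenylated RNA in 28 libraries from 13 mice labelled C57BL/6. The knockout is constitutive: in every cell, exon 1 and a piece of intron 1 of Csmd1 give way to a lacZ and neomycin cassette, and by the study's methods wildtype and knockout animals were littermates of heterozygous crosses on a mixed 129SvEvBrd:C57BL/6 colony. Testis cells of 8 mice were stained with Hoechst and sorted by DNA content and chromatin state into the gates of spermatogonia, of primary and of secondary spermatocytes and of spermatids. Whole testes of 7 mice were sequenced as well, and 3 mice, 178, 286 and 648, gave both kinds of library.

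Wildtype mice gave 2 libraries of spermatogonia, 2 of primary spermatocytes, 2 of secondary spermatocytes, 3 of spermatids, 2 of whole testis and 1 of whole ovary. Knockout mice gave 2 of spermatogonia, 4 of primary spermatocytes, 3 of secondary spermatocytes, 2 of spermatids and 5 of whole testis. No treatment is listed. An age of 40 days is listed for wildtype mice 178 and 351, and the methods give about that age for the males that were sorted. No age is listed for the other mice. The paper also describes whole testes of sexually immature males beside mature ones, so the whole testes here may differ in age. The mouse is the replicate, and libraries are named here by the number of their mouse.

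Meiotic recombination starts when PRDM9 marks hotspots on chromatin and SPO11 cuts both DNA strands there. The cut ends are resected, DMC1 coats them and carries them into the homologous chromosome, and the MSH4-MSH5 clamp, the helicase HFM1 and the RING protein RNF212 hold some of these joints until MLH3 helps to resolve them as crossovers. In the male these steps run from the first to the last part of meiotic prophase, within primary spermatocytes, and in the female they run in the fetal ovary.

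The sequences behind the results are the starts of the genes and 1 exon of Spo11. RefSeq promoter windows of GRCm38.p6, from 250 bases before to 50 bases after the start site, were found for 7 of the 8 genes. They are shown for Prdm9 and Dmc1, which fell together between sorted stages, and for Msh5 and Hfm1, which hold the same motif as Prdm9 and did not pass there. Capitals mark matches, on either strand, to the letters CNCCTCAG, a motif of the meiotic factor STRA8, or GCGGGAA, a motif of E2F factors.
Prdm9 (chr17:15564305-15564604, minus strand): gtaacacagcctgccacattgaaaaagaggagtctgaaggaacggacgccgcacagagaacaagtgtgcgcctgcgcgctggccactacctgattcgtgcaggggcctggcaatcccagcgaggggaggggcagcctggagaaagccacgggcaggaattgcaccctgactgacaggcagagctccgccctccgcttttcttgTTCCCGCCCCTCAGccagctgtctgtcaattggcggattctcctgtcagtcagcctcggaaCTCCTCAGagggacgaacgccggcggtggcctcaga
Dmc1 (chr15:79605060-79605359, minus strand): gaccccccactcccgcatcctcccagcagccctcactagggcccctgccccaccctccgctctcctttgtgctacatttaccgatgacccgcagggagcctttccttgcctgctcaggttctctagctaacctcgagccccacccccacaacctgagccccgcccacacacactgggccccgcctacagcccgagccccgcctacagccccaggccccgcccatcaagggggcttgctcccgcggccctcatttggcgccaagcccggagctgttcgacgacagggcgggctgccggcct
Msh5 (chr17:35046573-35046872, minus strand): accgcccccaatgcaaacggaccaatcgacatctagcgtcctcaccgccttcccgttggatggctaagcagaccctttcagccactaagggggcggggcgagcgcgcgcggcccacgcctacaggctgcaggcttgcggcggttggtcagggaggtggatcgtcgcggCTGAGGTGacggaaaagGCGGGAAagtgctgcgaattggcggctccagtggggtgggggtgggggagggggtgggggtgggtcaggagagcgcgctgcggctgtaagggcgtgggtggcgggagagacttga
Hfm1 (chr5:106925841-106926140, minus strand): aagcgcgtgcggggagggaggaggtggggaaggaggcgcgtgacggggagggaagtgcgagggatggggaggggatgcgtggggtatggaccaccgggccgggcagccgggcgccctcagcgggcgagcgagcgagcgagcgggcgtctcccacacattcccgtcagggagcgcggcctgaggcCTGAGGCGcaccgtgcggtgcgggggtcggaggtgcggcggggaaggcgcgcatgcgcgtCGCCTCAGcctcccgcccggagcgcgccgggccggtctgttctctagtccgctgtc

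CNCCTCAG was found in 3 of the 7 genes, Prdm9, Msh5 and Hfm1, and in 7.9% of all 32851 promoters. In Prdm9 its 2 matches start 41 bases before and at base 15 after the start site, and the first shares 1 base with a GCGGGAA match on the other strand. The second RefSeq promoter of Prdm9 holds none of the motifs searched. GCGGGAA was found in Prdm9, Msh5 and Rnf212 and in 4.6% of all promoters. The E-box CACGTG was found in Rnf212 alone among the 7 genes, against 7.2% of all promoters, and the MYB motif CAACTG in none of them, against 13.7%. These are matches of letters in a window and say nothing of binding.

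Before the results, several libraries have to be named that stood apart from their labels or their group. The library of knockout primary spermatocytes from mouse 613 was quantified in another way, since 13.6% of its low values fell on whole reads against 93.1 to 94.6% in the other 27, so its sums over transcripts do not compare directly. Spermatid markers (Prm1, Prm2, Tnp1, Tnp2, Acrv1 and Odf1) summed to 78.0 RPKM (reads scaled to transcript length and to library depth) in the spermatid library of wildtype mouse 648 and to 146.6 in that of knockout mouse 286, against 7263 to 7481 in the other 3 spermatid libraries. The same sum reached 10820 in the spermatogonia library of knockout mouse 544. The spermatogonia library of wildtype mouse 648 held markers of other testis cells, with peritubular and stromal markers (Acta2, Myh11, Col1a1, Col1a2, Dcn and Lum) at 798.0 RPKM against 29.7 to 195.0 in the other 3, Leydig cell markers (Cyp17a1, Cyp11a1, Hsd3b1, Hsd3b6, Star and Insl3) at 375.2 against 13.5 to 24.9 and macrophage markers (Adgre1, Csf1r, Cd68, Mrc1, C1qa and Cd14) at 60.3 against 8.61 to 14.6. It was also the lowest of its stage in Spo11, Dmc1, Msh4 and Msh5 and the highest in Mlh3. The library labels were kept, and results are given without these mice where that changes a call. Depth was 23820947 to 61687268 mapped reads in the 27 libraries. The targeted gene gave no check of genotype: full-length Csmd1 stood at 0 to 2.0 RPKM in knockout and 0.008 to 0.517 RPKM in wildtype testis libraries, and nearly all of that transcript lies outside the deleted part.

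The gates were checked against marker lists. Spermatogonial markers (Zbtb16, Uchl1, Kit, Stra8, Dmrt1 and Sohlh1) summed to 285.9 to 639.8 RPKM in the 4 spermatogonia libraries, above the 8.72 to 268.0 of the other 16 sorted libraries. Primary spermatocyte markers (Sycp1, Sycp2, Sycp3, Tex101, Ccna1 and Pgk2) summed to 479.3 to 1635 RPKM in the spermatogonia libraries and to 535.3 to 2480 RPKM in the primary spermatocyte libraries. The spermatogonia gate thus carried primary spermatocyte markers at levels that overlapped those of the next stage. Sycp3, a core of the meiotic chromosome axis, alone reached 195.9 to 1015 RPKM in the spermatogonia libraries. Sertoli cell markers were also higher there, at 368.4 to 658.4 RPKM against 31.7 to 160.2 RPKM in primary spermatocytes. In such bulk RNA, fewer cells of a type and less RNA per cell cannot be told apart.

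**Figure D1:**
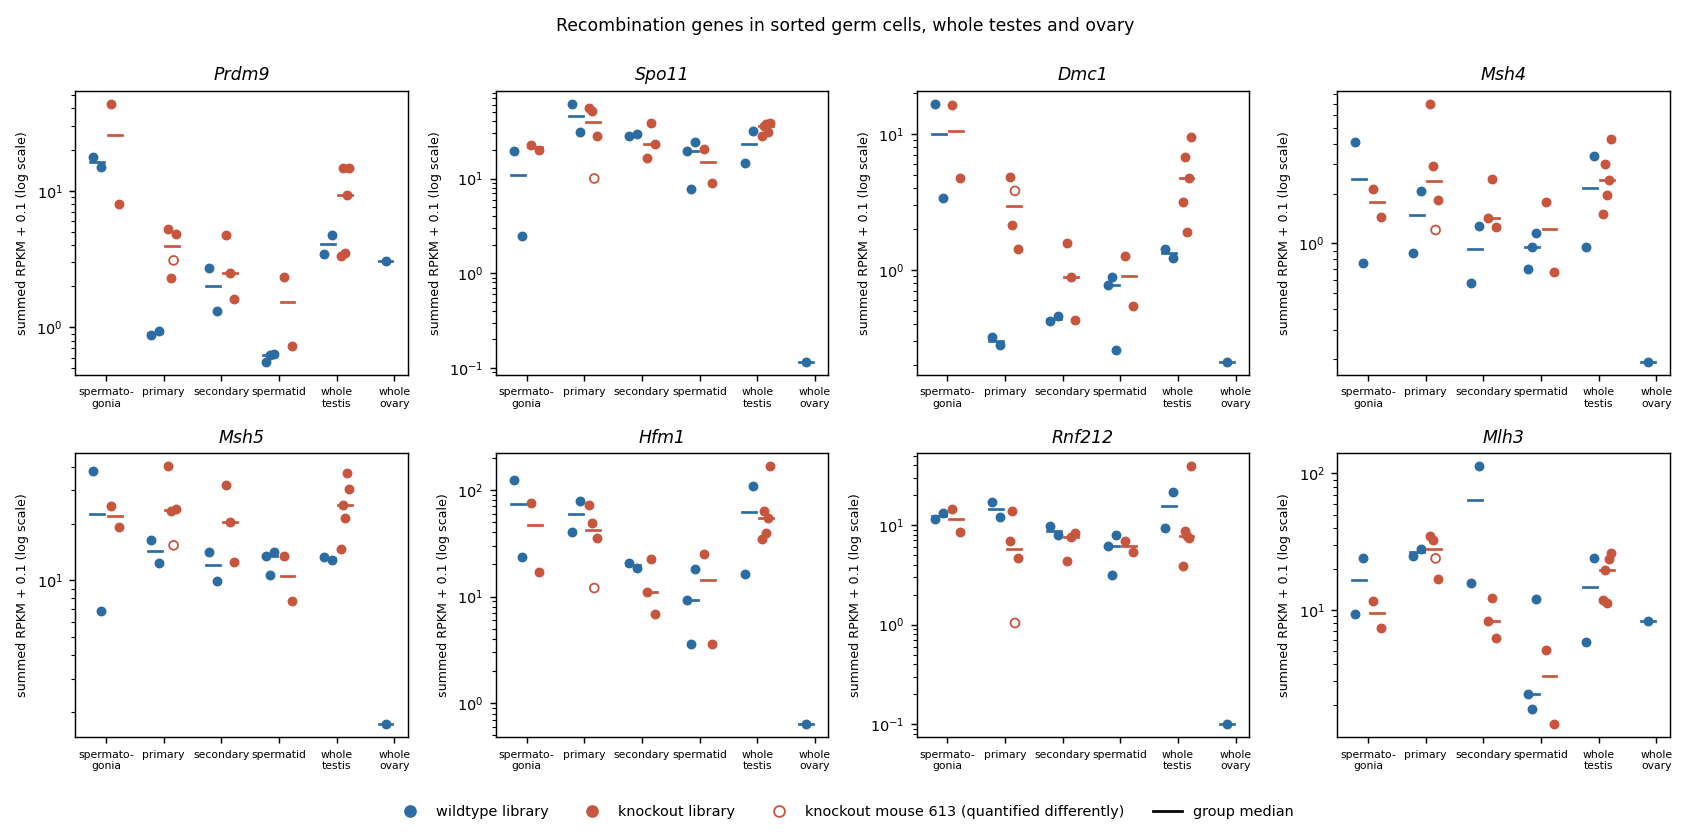
Summed RPKM plus 0.1 (log axis) of each gene in every library, by sorted stage, whole testis and ovary, with wildtype in blue, knockout in red, the library of mouse 613 as an open circle and group medians as short lines. Prdm9 and Dmc1 are high in spermatogonia and low afterwards, and Dmc1 and Prdm9 lie higher in all 4 knockout than in both wildtype libraries of primary spermatocytes. How many of all genes do so was not counted.

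Per length, the genes covered a wide range. RPKM of the longest coding transcript was taken for this, because transcripts that share reads are each counted in full and a sum over them grows with their number. Over the 19 sorted libraries without that of mouse 613, median levels per length were 7.81 RPKM for Rnf212, 5.96 for Mlh3, 4.61 for Spo11, 4.12 for Hfm1, 1.31 for Msh4, 1.27 for Msh5, 0.793 for Dmc1 and 0.438 for Prdm9. Rnf212, Mlh3, Spo11 and Hfm1 overlapped each other from library to library, as did Msh4 and Msh5, partners in 1 clamp. Rnf212 is listed with 1 short model of 288 nt, and its level rests on 21 to 284 reads per library. In RPKM Mlh3 covered the widest range, from 0.687 to 56.5, and as a ratio of highest to lowest library Dmc1 did, at 104-fold from 0.159 to 16.5 RPKM on 18 to 2131 reads, beside 83.1-fold for Prdm9 and 82.2-fold for Mlh3. The order changed with stage. In spermatogonia Dmc1 came second by median, at 10.4 RPKM, after Rnf212 at 12.4 and before Hfm1 at 8.81, Mlh3 at 5.20 and Spo11 at 3.84. In primary spermatocytes without mouse 613 Mlh3 came first, at 14.1 RPKM, and Dmc1 and Prdm9 came last, at 1.32 and 0.400.

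**Figure D2:**
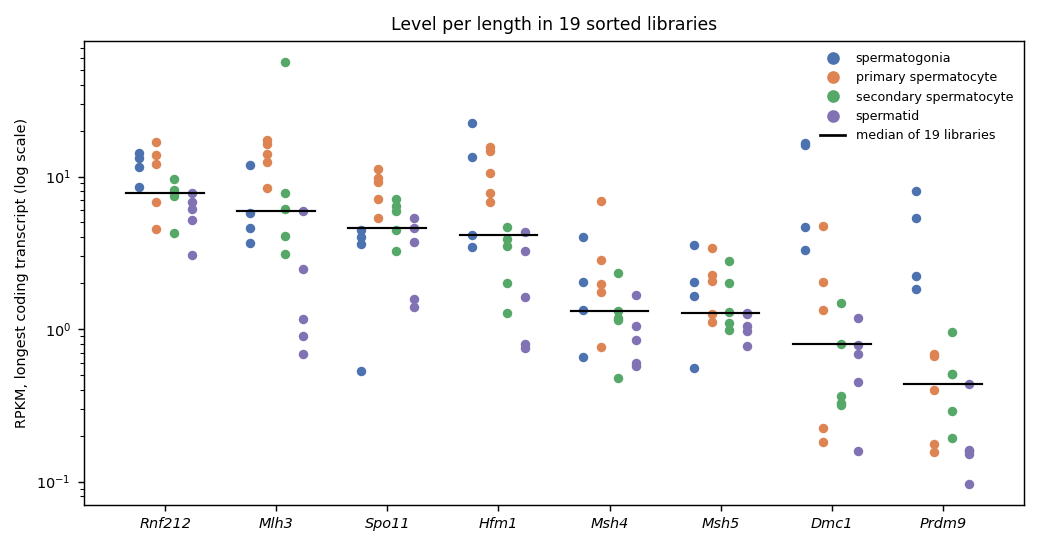
RPKM of the longest coding transcript (log axis) of each gene in the 19 sorted libraries without mouse 613, coloured by stage, with the median of all 19 as a line. Medians run from 7.81 RPKM for Rnf212 to 0.438 RPKM for Prdm9, and the spermatogonia points of Dmc1 and Prdm9 stand above nearly all their other points.

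Prdm9 (ENSMUSG00000051977, chr17:15543079-15564354, minus strand) encodes the zinc finger methyltransferase that places hotspots. Its summed level was 17.6 and 14.9 RPKM in spermatogonia of wildtype mice 178 and 648, and 43.0 and 7.87 RPKM in those of knockout mice 286 and 544. In primary spermatocytes it was 0.776 and 0.834 RPKM in wildtype mice 178 and 648, and 5.11, 2.21, 2.99 and 4.71 RPKM in knockout mice 544, 550, 613 and 614. All 4 spermatogonia libraries lay above all 6 primary spermatocyte libraries. Secondary spermatocytes held 2.60 and 1.21 RPKM (wildtype 178 and 648) and 4.66, 2.38 and 1.52 RPKM (knockout 286, 544 and 550). Spermatids held 0.458, 0.529 and 0.540 RPKM (wildtype 178, 351 and 648) and 2.22 and 0.628 RPKM (knockout 286 and 544). By median the order was spermatogonia, primary spermatocytes, secondary spermatocytes and spermatids, at 16.2, 2.60, 2.38 and 0.540 RPKM, and the middle 2 stages overlapped fully.

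Dmc1 (ENSMUSG00000022429, chr15:79561497-79605109, minus strand) encodes the meiosis-specific recombinase of strand exchange and is listed with 1 transcript of 2219 nt. Spermatogonia held 16.5 and 3.31 RPKM in wildtype mice 178 and 648 and 16.1 and 4.66 RPKM in knockout mice 286 and 544. Primary spermatocytes held 0.225 and 0.183 RPKM in wildtype mice 178 and 648, from 29 and 20 reads, and 4.77, 2.04, 3.72 and 1.32 RPKM in knockout mice 544, 550, 613 and 614. The stages overlapped through mouse 544, whose primary spermatocytes and spermatogonia stood at nearly the same level. Secondary spermatocytes held 0.320 and 0.362 RPKM in wildtype mice 178 and 648 and 1.49, 0.793 and 0.328 RPKM in knockout mice 286, 544 and 550. Spermatids held 0.683, 0.785 and 0.159 RPKM in wildtype mice 178, 351 and 648 and 1.18 and 0.449 RPKM in knockout mice 286 and 544. The 3 later stages overlapped each other, and their medians were 1.68, 0.362 and 0.683 RPKM against 10.4 RPKM in spermatogonia.

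Spo11 (ENSMUSG00000005883, chr2:172977700-172993576, plus strand), the topoisomerase-like enzyme that makes the breaks, had its highest median in primary spermatocytes. Its summed level was 19.4 and 2.37 RPKM in spermatogonia of wildtype mice 178 and 648 and 22.6 and 19.9 RPKM in those of knockout mice 286 and 544. Primary spermatocytes held 61.0 and 31.1 RPKM in wildtype mice 178 and 648 and 55.2, 51.3, 9.91 and 28.3 RPKM in knockout mice 544, 550, 613 and 614. Without mouse 613 every primary spermatocyte library lay above every spermatogonia library. Secondary spermatocytes held 16.3 to 38.2 RPKM (median 27.8, n = 5) and spermatids 7.62 to 24.1 RPKM (median 19.7, n = 5). By median the order was primary spermatocytes, secondary spermatocytes, and then spermatogonia and spermatids at 19.7 RPKM each, with overlap between neighbours.

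Spo11 is known in 2 main forms that differ by exon 2, a longer form with it and a shorter form without it, and the shorter form is known to come later in prophase. The exon (GRCm38, GENCODE M21) is shown because the listed transcripts allow the forms to be set apart.
Spo11 exon 2 (chr2:172981979-172982092, plus strand, 114 nt): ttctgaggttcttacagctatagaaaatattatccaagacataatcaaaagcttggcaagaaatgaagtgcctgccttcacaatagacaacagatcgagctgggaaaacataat

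The transcript with exon 2 (1709 nt) was set against a transcript without it (1591 nt), and these models differ by slightly more than that exon. Reads of the first minus those of the second were 20 of 403, 4 of 41, 11 of 280 and 2 of 231 in spermatogonia of mice 178, 648, 286 and 544. That is 4.96%, 9.76%, 3.93% and 0.87% of the reads counted for the longer form. In primary spermatocytes the excess was 8 of 1126, 28 of 609, 9 of 547, 11 of 632 and 6 of 316 reads in mice 178, 648, 544, 550 and 614, or 0.71 to 4.6%. It was 0 to 3.0% in secondary spermatocytes, 1.3 to 4.5% in whole testes, and in spermatids 0 to 1.61% apart from wildtype mouse 178 at 9.65%. Few reads thus told the forms apart in any stage, the ranges of the stages overlapped, and no test was made. Exon 2 is 114 of the 1709 nt of the longer form. Even RNA of that form alone would give a small share, so these shares do not give the balance of the forms.

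The crossover genes Msh4 (ENSMUSG00000005493, chr3:153857149-153906138) and Msh5 (ENSMUSG00000007035, chr17:35028605-35046745), both on the minus strand, encode the clamp that holds the joined chromosomes. Msh4 held 0.656 to 4.02 RPKM in spermatogonia (median 1.69, n = 4), 0.767 to 6.87 in primary spermatocytes (median 1.86, n = 6), 0.476 to 2.34 in secondary spermatocytes (median 1.17, n = 5) and 0.572 to 1.67 in spermatids (median 0.845, n = 5). Msh5 held 6.76 to 37.9 RPKM summed in spermatogonia, 12.2 to 40.2 in primary spermatocytes, 9.83 to 31.8 in secondary spermatocytes and 7.62 to 14.0 in spermatids. All 4 stages overlapped in both genes. Knockout mouse 544 was highest in primary spermatocytes for both, at 6.87 RPKM for Msh4 and 40.2 RPKM for Msh5.

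Hfm1 (ENSMUSG00000043410, chr5:106840192-106926321, minus strand), the crossover helicase, was highest in the 2 earlier stages. Spermatogonia held 123.4 and 23.2 RPKM in wildtype mice 178 and 648 and 75.8 and 17.0 RPKM in knockout mice 286 and 544. Primary spermatocytes held 40.0 and 79.2 RPKM in wildtype mice 178 and 648 and 72.8, 49.2, 11.9 and 35.0 RPKM in knockout mice 544, 550, 613 and 614. Secondary spermatocytes held 20.3 and 18.6 RPKM in wildtype mice 178 and 648 and 10.9, 22.4 and 6.70 RPKM in knockout mice 286, 544 and 550. Apart from mouse 613, every primary spermatocyte library lay above every secondary spermatocyte library. Spermatids held 3.46 to 24.7 RPKM (median 9.23, n = 5) and overlapped secondary spermatocytes.

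Rnf212 (ENSMUSG00000055385, chr5:108729290-108774982, minus strand), has a protein product that gathers at future crossover sites. The gene held 8.48 to 14.4 RPKM in spermatogonia, 4.54 to 16.8 in primary spermatocytes without mouse 613, 4.24 to 9.62 in secondary spermatocytes and 3.06 to 7.81 in spermatids. The library of mouse 613 gave 0.937 RPKM.

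Mlh3 (ENSMUSG00000021245, chr12:85234520-85270599, minus strand), the endonuclease subunit that resolves crossovers, held 9.21 and 23.96 RPKM in spermatogonia of wildtype mice 178 and 648 and 11.6 and 7.29 RPKM in those of knockout mice 286 and 544. Primary spermatocytes held 24.8 and 28.1 RPKM in wildtype mice 178 and 648 and 34.6, 32.3, 23.8 and 16.8 RPKM in knockout mice 544, 550, 613 and 614. Secondary spermatocytes held 15.5 and 112.9 RPKM in wildtype mice 178 and 648 and 8.16, 12.1 and 6.13 RPKM in knockout mice 286, 544 and 550. The library of mouse 648 stood far above the others there, with 19027 reads on the longest transcript against 753 to 2367. Spermatids held 2.32, 1.79 and 11.9 RPKM in wildtype mice 178, 351 and 648 and 4.98 and 1.36 RPKM in knockout mice 286 and 544. Within each of the 4 mice with both stages, Mlh3 was lower in spermatids than in secondary spermatocytes.

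Stages were compared on log2(RPKM + 0.1) with limma over 19025 genes, as the mean of the differences in both genotypes and with Benjamini-Hochberg adjustment over all genes. From spermatogonia to primary spermatocytes 2 of the 8 genes passed an adjusted p of 0.05, both lower: Prdm9 and Dmc1. Of all genes 31.5% passed, 22.0% lower and 9.49% higher, so this transition moved much of the transcriptome and the share of the 8 genes lies near that background. The median of all genes was -0.28, and after quantile normalization the split of all calls went from 1806 higher and 4191 lower to 3113 higher and 2857 lower. Prdm9 fell by 3.26 on the log2 scale (SE 0.53, limma adjusted p = 0.000575) and Dmc1 by 3.16 (SE 0.62, limma adjusted p = 0.00141).

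Both passed in each of the 18 other settings tried, among them quantile normalization, at -2.79 for Prdm9 and -2.47 for Dmc1, the wildtype libraries alone, at -4.17 and -4.63, and the omission of each mouse, while 11.5 to 42.3% of all genes passed in these settings. Their limma adjusted p ran from 5.10e-05 to 0.0190 for Prdm9 and from 0.000258 to 0.0411 for Dmc1. Within mice, Prdm9 differed by -4.33, -4.01 and -0.61 in mice 178, 648 and 544, and Dmc1 by -5.67, -3.59 and 0.03. Spermatogonial markers were also higher in the spermatogonia libraries, at 285.9 to 639.8 RPKM against 14.8 to 268.0 RPKM in primary spermatocytes. The part of these cells in the differences of Prdm9 and Dmc1 was not tested.

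Spo11 was 1.57 higher in primary spermatocytes than in spermatogonia on the log2 scale (SE 0.61, limma adjusted p = 0.0584), and higher in 3 of 3 mice. It passed at 1.84 without mouse 613 (limma adjusted p = 0.0159) and at 1.71 with the mouse as a replicate block (limma adjusted p = 0.0168), where 39.0% and 41.0% of all genes passed. It did not pass at 1.07 without wildtype mouse 648 (limma adjusted p = 0.339), where 11.5% of all genes did. The part of the stromal, Leydig and macrophage markers of that mouse's spermatogonia library in this difference was not tested. Mlh3 differed by 1.15 (SE 0.62, limma adjusted p = 0.175) and passed with the mouse as a replicate block, at 1.30 (limma adjusted p = 0.0428). The 4 other genes differed by -0.53 to 0.08 with adjusted p of 0.535 or more.

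From primary to secondary spermatocytes 0 of 8 genes passed in limma, against 3.04% of all genes, and 1 of 8 had an unadjusted p under 0.05, against 21.7%. That was Hfm1, which differed by -1.54 (SE 0.69, limma adjusted p = 0.200), was lower in 4 of 4 mice and passed with the mouse as a replicate block at -1.77 (limma adjusted p = 0.0493). With the block 19.9% of all genes passed in this comparison, so 1 of 8 lies below that background. Spo11, Msh4 and Msh5 were also lower in all 4 mice, with differences of -0.45, -0.66 and -0.26 that did not pass. The share of all genes lower in all 4 mice was not counted, so these directions stand without a background.

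From secondary spermatocytes to spermatids 0 of 8 genes passed in limma, against 0.536% of all genes, and 2 of 8 had an unadjusted p under 0.05, against 17.7%. Mlh3 differed by -2.56 (SE 0.61, limma adjusted p = 0.0653) and Prdm9 by -1.33 (SE 0.52, limma adjusted p = 0.196), each lower in 4 of 4 mice. Among these mice are 648 and 286, whose spermatid libraries held spermatid markers at only 78.0 and 146.6 RPKM. The share of all genes lower in all 4 mice was not counted. Both passed with the mouse as a replicate block, at -2.50 for Mlh3 (limma adjusted p = 0.00650) and -1.46 for Prdm9 (limma adjusted p = 0.0292), in a fit where 10.4% of all genes passed. Without wildtype mouse 648, whose secondary spermatocytes stood apart, Mlh3 differed by -2.26 (limma adjusted p = 0.0959), and without knockout mouse 544 by -1.98 (limma adjusted p = 0.611). Without knockout mouse 613 it passed, at -2.56 (limma adjusted p = 0.0454), as did 2.19% of all genes.

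**Figure D3:**
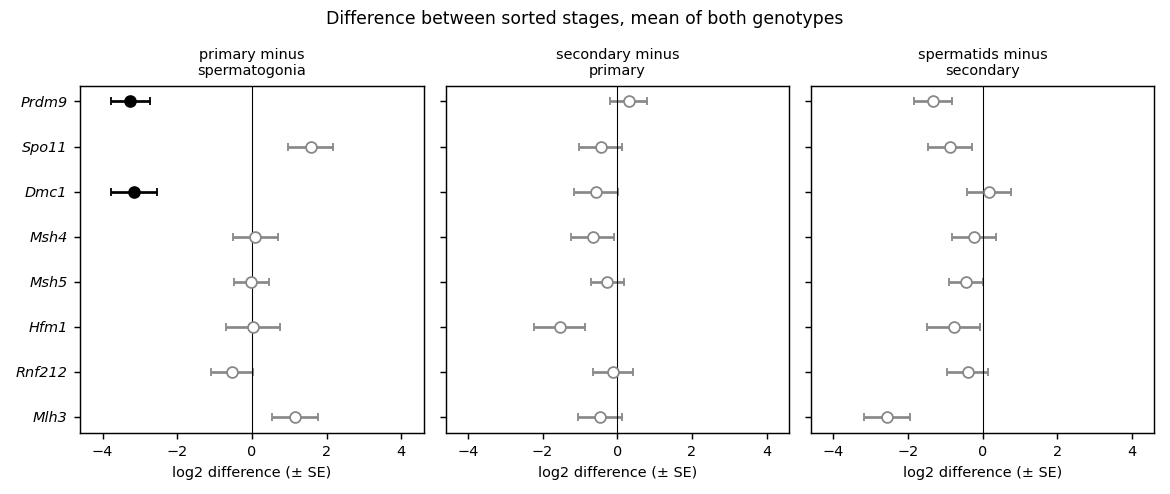
Log2 difference between successive sorted stages, mean of both genotypes, for each gene (points, with SE bars), filled where the limma adjusted p over 19025 genes was under 0.05. Prdm9 at -3.26 and Dmc1 at -3.16 are the 2 filled points, both from spermatogonia to primary spermatocytes.

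The other genes of the pathway were read from a list of 28 genes for break formation, strand exchange, crossover and PRDM9 partners, of which 27 were tested. From spermatogonia to primary spermatocytes 8 of the 27 were lower and 1 higher in limma, near the 22.0% lower and 9.49% higher of all genes, with a list median of -0.58 beside -0.28 for all genes. Of these, Tex11, an X-linked crossover gene, changed most and fell by 4.48 (SE 0.79, limma adjusted p = 0.000850). Hells, a chromatin remodeller that works with PRDM9, fell by 2.94 (SE 0.63, limma adjusted p = 0.00239). Others that fell were Rec114 and Mei1, which act in break formation with SPO11, Mnd1, which assists DMC1, Pms2, a mismatch repair gene, and Zcwpw1, which reads the PRDM9 mark. Cntd1, a cyclin-like crossover factor, rose by 1.87 (SE 0.48, limma adjusted p = 0.00763). From primary to secondary spermatocytes 1 of 27 passed, against 3.04% of all genes. It was Spata22, a partner of the single-strand binding factor MEIOB, at -2.81 (SE 0.72, limma adjusted p = 0.0439). From secondary spermatocytes to spermatids 0 of 27 passed in limma, against 0.536% of all genes, and 5 had an unadjusted p under 0.05, against 17.7%.

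Knockout and wildtype were compared within each stage in the same fit. In primary spermatocytes Dmc1 was higher in all 4 knockout libraries (1.32 to 4.77 RPKM) than in both wildtype libraries (0.183 and 0.225 RPKM), and Prdm9 likewise (2.21 to 5.11 RPKM against 0.776 and 0.834 RPKM). The share of all genes that separate the genotypes in this way in primary spermatocytes was not counted. In limma 0 of 8 genes and 0% of all genes passed there, while 3 of 8 and 8.76% had an unadjusted p under 0.05. Dmc1 differed by 3.18 on the log2 scale (SE 0.81, unadjusted p = 0.00103, limma adjusted p = 0.228), Prdm9 by 2.01 (SE 0.69, limma adjusted p = 0.378) and Rnf212 by -1.63 (SE 0.74, limma adjusted p = 0.548), beside a median of 0.41 over all genes. Rnf212 differed by -0.91 without mouse 613.

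Spermatogonial markers moved the same way in these libraries. Their sum was 16.9 and 14.8 RPKM in wildtype mice 178 and 648 and 92.4, 43.2, 83.9 and 268.0 RPKM in knockout mice 544, 550, 613 and 614, with at most 1 of the 6 markers at 0 in a library. Mouse 614 had the highest marker sum and the lowest Dmc1 of the 4 knockout mice. The part of these cells in the differences of Dmc1 and Prdm9 was not tested. Wildtype mouse 648 and knockout mouse 614 lack values for the same transcripts and are taken as quantified together, and in that pair Dmc1 was 0.183 against 1.32 RPKM and Prdm9 0.834 against 4.71 RPKM. With the set quantified together as a covariate both passed, Dmc1 at 3.51 (limma adjusted p = 0.0321) and Prdm9 at 3.02 (limma adjusted p = 0.0234). Apart from that pair, no set held both genotypes in primary spermatocytes. These estimates thus rest on the pair and on set differences taken from other stages. With this covariate 402 of all 19025 genes passed there (2.11%), 398 of them higher in knockout, against 0 without it. Over all 17 alternatives the adjusted p ran to 0.994 for each.

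**Figure D4:**
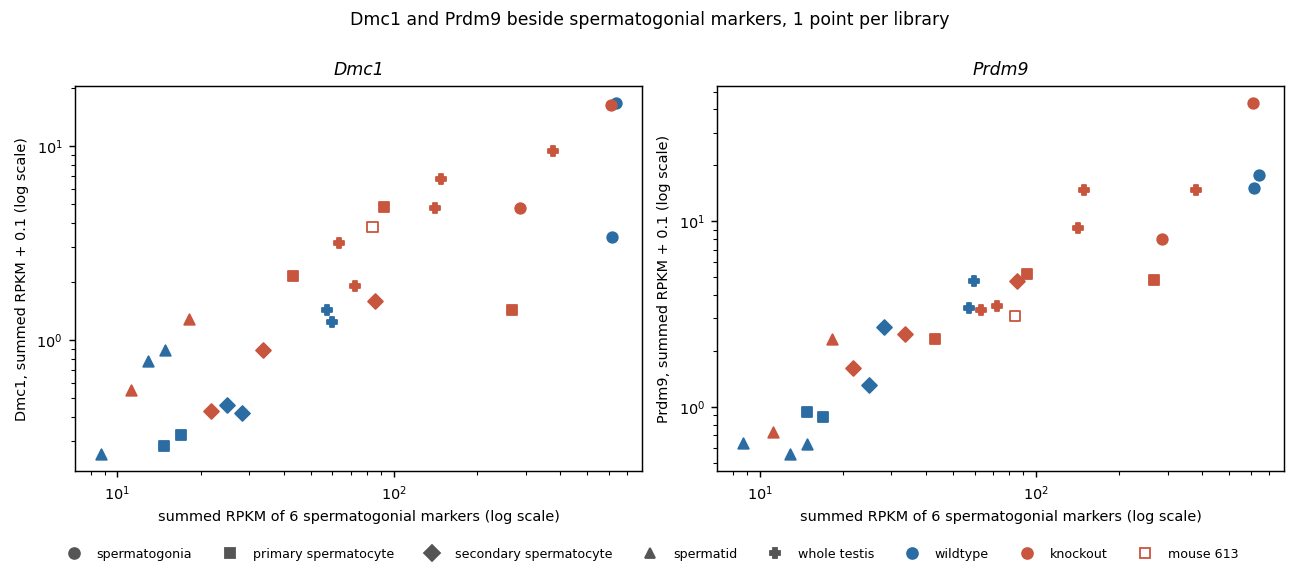
Summed RPKM plus 0.1 of Dmc1 and of Prdm9 against the summed RPKM of 6 spermatogonial markers (both axes log), 1 point for each of the 27 testis libraries, with stages as shapes, wildtype in blue, knockout in red and mouse 613 open. The 4 knockout primary spermatocyte libraries (squares) lie above and to the right of the 2 wildtype ones, at marker sums of 43.2 to 268.0 against 14.8 and 16.9 RPKM.

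In the other stages 0 of 8 genes passed in limma between genotypes, as did 0% of all genes. Without knockout mouse 286, 1360 of 18948 genes (7.18%) passed in spermatogonia and 1150 (6.07%) averaged over stages, and still 0 of the 8. Unadjusted p was under 0.05 for 0 of 8 in spermatogonia (5.35% of all genes), for 1 of 8 in secondary spermatocytes (2.89%) and for 0 of 8 in spermatids (0.731%). The 1 gene was Mlh3, which differed by -2.29 in secondary spermatocytes (SE 0.86, limma adjusted p = 1.0) and by -0.87 without wildtype mouse 648. Averaged over the 4 stages 0 of 8 genes passed, against 0.0105% of all genes, and 2 of 8 had an unadjusted p under 0.05, against 8.54%. These were Dmc1 at 1.23 (SE 0.43, limma adjusted p = 0.542) and Prdm9 at 0.95 (SE 0.37, limma adjusted p = 0.546). That fit counts libraries of the same mouse as separate replicates. With the mouse as a replicate block the differences were 0.97 (SE 0.58) for Dmc1 and 0.85 (SE 0.48) for Prdm9, with limma adjusted p of 0.985 for each. A limma test of whether the genotype difference changed with stage passed for none of the 8 genes, with the smallest unadjusted p at 0.0894 for Dmc1.

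**Figure D5:**
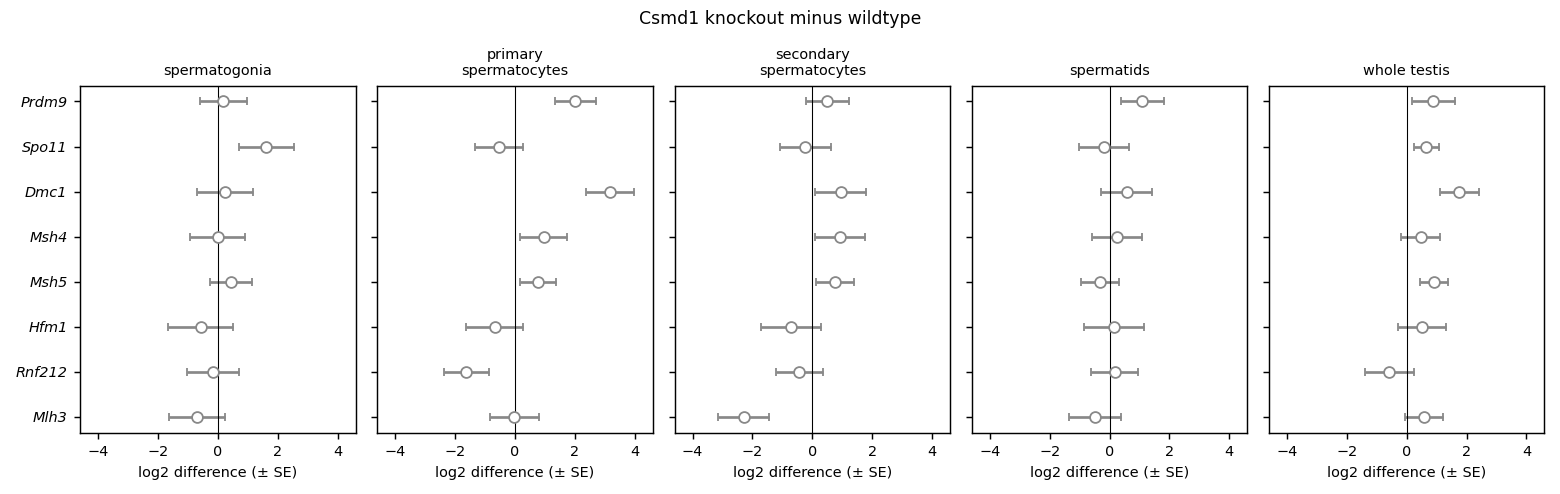
Log2 difference of Csmd1 knockout minus wildtype for each gene (points, with SE bars) in the 4 sorted stages and in whole testis; open points did not pass an adjusted p of 0.05 in limma, and all 40 are open. Dmc1 in primary spermatocytes, at 3.18, and Dmc1 in whole testis, at 1.76, lie farthest to the right in their panels.

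In whole testis Dmc1 was 1.33 and 1.13 RPKM in wildtype mice 178 and 648 and 3.07, 6.65, 1.79, 4.66 and 9.33 RPKM in knockout mice 214, 269, 273, 286 and 308. Each knockout testis lay above both wildtype testes. The share of all genes for which this holds was not counted. Prdm9 held 3.32 and 4.64 RPKM in wildtype and 3.21, 14.6, 3.41, 9.14 and 14.5 RPKM in knockout testes in the same order of mice, and the groups overlapped. In limma over 22763 genes 0 of 8 and 0% of all genes passed (without wildtype mouse 648 0 of 8 and 0.683%), and 1 of 8 against 10.9% had an unadjusted p under 0.05. That was Dmc1, at 1.76 (SE 0.66, unadjusted p = 0.0259, limma adjusted p = 0.381), beside a median of 0.39 over all genes.

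The 3 knockout testes highest in Dmc1 and Prdm9, those of mice 269, 286 and 308, held spermatid markers at 3.32 to 22.6 RPKM and spermatogonial markers at 141.5 to 378.5 RPKM. Knockout mice 214 and 273 held spermatid markers at 8655 and 10757 RPKM and spermatogonial markers at 63.1 and 72.3 RPKM. The wildtype testes held spermatid markers at 4849 RPKM in mouse 178 and 27.3 RPKM in mouse 648, and spermatogonial markers at 57.2 and 59.7 RPKM. The parts of cell makeup and of age in the difference of Dmc1 were not tested, and no age is listed for mice 269, 286, 308 or 648. Spo11 stood at 28.3 to 38.1 RPKM in the 5 knockout testes against 14.4 and 31.8 RPKM in wildtype, and Mlh3 at 11.2 to 26.2 against 5.69 and 23.7 RPKM, so both overlapped. Hfm1 reached 166.4 RPKM in knockout mouse 308 and 107.9 RPKM in wildtype mouse 648, against 16.2 to 62.9 RPKM in the other 5 testes, and Rnf212 was likewise highest in these 2, at 38.9 and 21.5 RPKM.

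The single ovary, of wildtype mouse 86, held oocyte markers at 160.5 RPKM, with Zp3, a coat protein of the egg, at 43.3 RPKM. Mlh3 at 8.14 RPKM was within its range in whole testes (5.69 to 26.2 RPKM). Prdm9 at 2.95 RPKM lay just below every whole testis (3.21 to 14.6 RPKM). Msh5 at 1.62, Hfm1 at 0.539, Dmc1 at 0.112, Msh4 at 0.091 and Spo11 at 0.016 RPKM also lay below every whole testis, and Rnf212 was listed at 0. With 1 ovary there is no replicate check.

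Across the 19 sorted libraries without mouse 613, log2(RPKM + 0.1) of Dmc1 and Prdm9 went together (Pearson r = 0.878), as did Msh4 and Msh5 (r = 0.765). Spo11 did not follow either of the first pair (r = -0.15 with Dmc1 and -0.155 with Prdm9). The genes most like each in pattern, among those tested, were Patl1 (r = 0.966) and Isoc1 (0.965) for Prdm9, Oat (0.948) and Heatr3 (0.943) for Dmc1, and 1700102P08Rik (0.944) and Tmem45b (0.938) for Spo11. They were Hormad2 (0.868) and Gapvd1 (0.858) for Msh4, Hdhd2 (0.883) and Ubxn2b (0.852) for Msh5, and Dop1a (0.959) and Spcs3 (0.941) for Hfm1. For Rnf212 they were Pacsin3 (0.825) and Zfp14 (0.815), and for Mlh3 Cdca8 (0.951) and Snai1 (0.946). These libraries share mice and gates, so the values of r are a description.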

How the data were processed

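RNA from 28 libraries was sequenced as paired-end polyadenylated RNA; by the study's methods the authors mapped reads with TopHat2 to Ensembl transcripts and deposited RPKM per transcript. The methods also name PEER, quantile normalization and PoissonSeq for testing; these were not run here except quantile normalization as an alternative. In 27 libraries RPKM times length fell on whole reads, which gave depth and read numbers. No column lacked a sample. Libraries that lack values for the same transcripts were taken as quantified together (4 sets). Transcripts were assigned to genes with GENCODE M21 (GRCm38), which matched 90339 of 94480 identifiers (95.6%), and summed per gene. The members, gene lists, markers and tests were chosen with earlier results of these data known.

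Genotypes and stages were compared with limma 3.58.1 in R 4.3.3 on log2(RPKM + 0.1), with trended empirical Bayes and Benjamini-Hochberg adjustment, for genes averaging 0.1 RPKM or more: 19025 in 20 sorted libraries (8 groups) and 22763 in 7 testes. Fold changes on this scale understate those of low genes. The fit was tested on simulated data. Genes named are the 8 members, the 3 pathway genes with the largest change that passed in each stage comparison, others of the pathway by count, and the 2 genes nearest in pattern to each member; the names of further pathway genes that passed were added after their values were seen. Of the pathway genes that passed, 1 is not reported here by name. Sorted libraries of a mouse come from the same animal. The mouse numbers pair them: deviations from group means correlated at a median r of 0.479 in 22 same-mouse pairs against -0.047 in 151 others, so the fit with the mouse as a replicate block (correlation 0.399) is given beside calls it changes. Within a group each library comes from another mouse, but the main fit treats all sorted libraries as independent. Its p-values for differences across or averaged over stages therefore ignore that libraries share mice.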

Additional observations from a re-analysis of the deposited data

How the results depend on the processing

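Prdm9 and Dmc1 passed from spermatogonia to primary spermatocytes in all 18 alternatives, at -4.17 to -2.65 and -4.63 to -2.13. The 14 member differences that had an unadjusted p under 0.05, or passed in an alternative, kept their sign in all of their 240 alternative values. Of these values 15 newly passed. Only those of Prdm9 and Dmc1 had passed in the main fit, and neither was lost. The 14 were picked by p-values from these same fits, which reuse the same libraries, so their kept signs are no independent check. Of the 58 other differences, all between -0.87 and 1.62, 38 changed sign in at least 1 alternative. With the mouse as a replicate block 4, 1 and 2 of 8 genes passed in the 3 successive stage comparisons, beside 41.0%, 19.9% and 10.4% of all genes (31.5%, 3.04% and 0.536% without it), and it changed no call between genotypes. With the set quantified together as a covariate 2 passed from secondary spermatocytes to spermatids, beside 11.0% of all genes. Between genotypes in primary spermatocytes 2 passed with it, beside 2.11%, and there sets and genotypes largely coincide. Leaving out each mouse gave 2 to 3 genes from spermatogonia to primary spermatocytes (3 without knockout mouse 613, Spo11 the third), 0 to 1 from secondary spermatocytes to spermatids (1 without knockout mouse 613, Mlh3), and 0 elsewhere. Without knockout mouse 613, 39.0% of all genes passed from spermatogonia to primary spermatocytes and 2.19% from secondary spermatocytes to spermatids. Leaving out mice 613 and 614 together, chosen after seeing the data, let Spo11 pass at 1.99, beside 37.7% of all genes. Stages with 2 libraries a genotype, some left with 1 by omission, limit every genotype comparison.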
